A study of Sminthopsis crassicaudata with 9 samples.

Results

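The cell cycle and replication genes are the gene models of the fat-tailed dunnart whose symbol names an A, B, D or E cyclin, a cyclin-dependent kinase (CDK) or CDK inhibitor, a numbered CDC, MCM, E2F, ORC or GINS gene, an aurora or polo-like kinase, MKI67 or TOP2A. They were chosen by symbol alone and number 79 of the 21703 models in the count table, of which 14169 have a symbol, and they lie on 45 of 273 scaffolds. The study profiled the face of dunnart pouch young, a carnivorous marsupial, within 24 hours of birth, with the tongue, neural tube and eye primordia taken out. The histone marks H3K4me3 and H3K27ac were measured by chromatin immunoprecipitation and sequencing in 2 pools of 26 and 27 heads, each with its own total DNA as input, as the labels give them, while the study's methods state another total of young, and RNA was measured in 3 libraries, each a pool of 2 young. Every sample is untreated tissue of the same kind and age, labelled with no treatment or genotype, so no group stood against another and no test of a difference was possible. Levels are therefore given per library or per pool, beside the same measure over all genes with a symbol.

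A cell copies its genome once and then divides, and the proteins that drive this work in a fixed order. Cyclins bind CDKs and switch them on, E2F factors turn on the genes of S phase once the RB protein is phosphorylated, the origin recognition complex (ORC) loads the MCM helicase on DNA, and the aurora and polo-like kinases with the anaphase-promoting complex carry the cell through mitosis. In a face that is still being built, cells that proliferate lie beside cells that have left the cycle, such as muscle fibres and the outer layers of the skin. H3K4me3 marks active promoters, and H3K27ac marks active promoters and enhancers.

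RNA levels are in TPM, the transcript abundance scaled to one fixed sum per library, computed from the deposited counts and the exon length of each model, and 3 values in a row are those of libraries FP1, FP2 and FP3. The libraries held 17419099, 16358621 and 16096971 counts. In bulk tissue, fewer cells of a type and less RNA per cell cannot be told apart, and a level here is an average over all cells of the face. Fold enrichment is that of the strongest peak (q under 0.05) within 1 kb of the transcription start site (TSS), over the input of the same pool, and 2 values in a row are those of pools 1 and 2. Means are given ± SD, with n = 3 libraries or n = 2 pools. The sequencing depth behind a peak is unknown from the peak lists. Markers of the tissue were in place: TWIST1 of the facial mesenchyme stood at 359, 285 and 217 TPM, KRT14 of the surface epithelium at 4372, 2965 and 5839.8 TPM and TNNT3 of skeletal muscle at 6359.8, 4936 and 6928 TPM. All 5 eye markers were under 1 TPM, and 3 of them were at 0 in every library.

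Nearly all cell cycle and replication genes were transcribed in the newborn face. Of the 79 members 74 (93.7%) exceeded 1 TPM in all 3 libraries, against 75.3% of genes with a symbol and 56.5% of all genes. Over 10 TPM in all 3 libraries were 58 members (73.4%), against 49.3% of genes with a symbol. The median member stood at 29.8 TPM and the median gene with a symbol at 12.8 TPM. Library by library the medians were 23.6, 29.8 and 21.0 TPM for the members and 11.3, 15.1 and 11.4 TPM for genes with a symbol, so the members were higher in each. Among expressed genes alone the gap was narrower, with 30.4 TPM for the members and 22.5 TPM for genes with a symbol. By mean level, 10 members exceeded 100 TPM, 51 lay between 10 and 100 TPM, 13 were expressed at lower levels and 5 were not expressed. The spread over libraries was ordinary, with a median coefficient of variation of 20.5% for expressed members and 20.9% for expressed genes with a symbol.

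**Figure D1:**
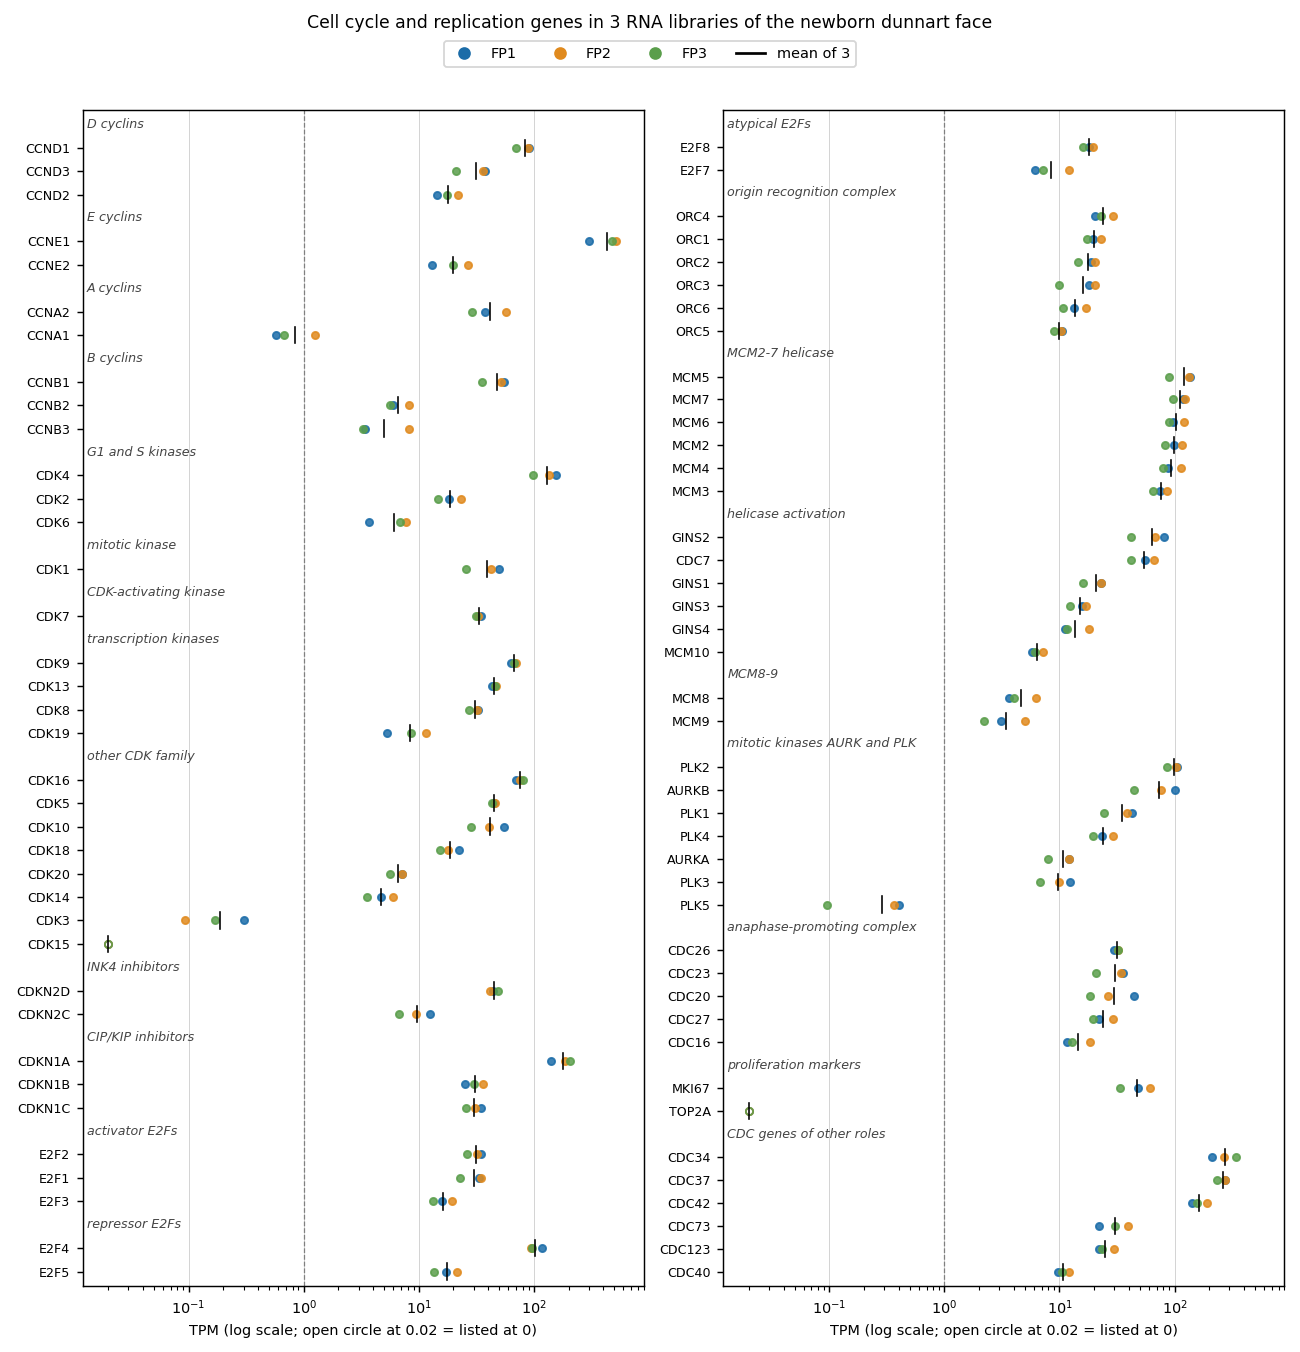
TPM of the 79 members (log axis) in libraries FP1 (blue), FP2 (orange) and FP3 (green), grouped by role, with the mean of 3 as a black bar, a dashed line at 1 TPM and open circles for genes listed at 0. CCNE1 is highest at a mean of 434 TPM, MCM2 to MCM7 lie close together between 75.5 and 120 TPM, and 5 members do not pass 1 TPM in all libraries.

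The D cyclins, which pair with CDK4 and CDK6 and relay growth signals to the RB protein, were all expressed. CCND1 led them at 90.6, 89.4 and 69.6 TPM, followed by CCND3 at 37.6, 36.1 and 21.0 TPM and CCND2 at 14.5, 21.7 and 17.6 TPM. CCND1 was 2.73 ± 0.503 times CCND3 and 4.77 ± 1.28 times CCND2 within a library. Of their kinase partners CDK4 was high, at 155, 135 and 97.6 TPM, and CDK6 low, at 3.67, 7.71 and 6.82 TPM. The ratio of CDK4 to CDK6 was 42.4, 17.5 and 14.3 in the 3 libraries, so the order of these kinases was the same in each while its size was not. CDK2, the partner of the E cyclins at the start of S phase, lay between them at 18.4, 23.2 and 14.6 TPM.

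CCNE1, the cyclin that with CDK2 starts DNA replication, had the highest level of the members. It stood at 303, 522 and 476 TPM (mean 434 ± 115), rank 283 of 21692 genes. In FP1 the next member, CDC37, was close to it at 276 TPM. Its relative CCNE2 was at 13.1, 26.7 and 19.7 TPM, and the ratio of CCNE1 to CCNE2 was 22.3 ± 2.43. CCNE1 was also 23.8 ± 8.17 times its kinase CDK2. The CCNE1 model (scaffold00002_pilon_pilon:313393048-313405213 of the study's assembly, minus strand) has 13 exon blocks and 3321 bases of exon and shares no exon base with another model on its strand. The model was lifted from the Tasmanian devil, and whether all reads counted on it come from CCNE1 transcripts was not tested, which bears on its level and on both ratios. The promoter signal did not stand out in the same way: H3K4me3 was 28.1- and 35.8-fold and H3K27ac 15.6- and 19.3-fold, both under the member medians of 54.0 and 30.0.

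The A and B cyclins, which act in S phase and at the entry to mitosis, showed 1 strong and 1 or 2 weak genes each. CCNA2, the A cyclin of dividing body cells, was at 37.5, 57.1 and 29.2 TPM, while CCNA1, known from the germ line in mouse, was at 0.570, 1.26 and 0.672 TPM and did not count as expressed. CCNB1, the main mitotic partner of CDK1, was at 55.0, 52.1 and 35.4 TPM, CCNB2 at 5.94, 8.17 and 5.56 TPM and CCNB3 at 3.43, 8.14 and 3.28 TPM. CDK1, the kinase of mitosis, was at 49.7, 42.6 and 25.9 TPM, close to CCNB1 and CCNA2. The 5 listed germ line genes summed to 0.455, 0.621 and 0.465 TPM, and whether this bears on the CCNA1 level was not tested.

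Inhibitors of CDKs were present beside the cyclins. CDKN1A, which halts the cycle after DNA damage and at differentiation, was the fourth most abundant member at 142, 185 and 206 TPM. Its relatives CDKN1B, an inhibitor of resting cells, and CDKN1C, known from growth control in the embryo, were lower, at 25.0, 36.4 and 30.0 TPM and 34.7, 30.6 and 25.9 TPM. CDKN1A was 5.88 ± 0.923 times CDKN1B. Of the INK4 type, which blocks CDK4 and CDK6, CDKN2D stood at 44.0, 41.5 and 48.3 TPM and CDKN2C at 12.6, 9.50 and 6.67 TPM. CDKN2D exceeded CDKN2C in every library. CDKN2C was lowest in FP3 and CDKN2D highest there, so the ranking of the libraries differed between these inhibitors.

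Among the E2F factors the repressor E2F4 was the most abundant. It was at 118, 93.5 and 95.9 TPM, against 17.4, 21.6 and 13.4 TPM for E2F5, the other E2F that works with RB relatives in resting cells. The activators, which switch on S phase genes, lay within a factor of 1.92 of each other, with E2F2 at 35.0, 32.2 and 26.3 TPM, E2F1 at 33.2, 34.4 and 23.0 TPM and E2F3 at 15.8, 19.6 and 13.3 TPM. Of the atypical repressors that close the S phase programme, E2F8 was close to E2F3 and E2F7 lower, with E2F8 at 17.9, 19.7 and 16.0 TPM and E2F7 at 6.17, 12.0 and 7.16 TPM.

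The subunits of the MCM helicase, the ring that unwinds DNA at the replication fork, were expressed at nearly equal levels. MCM5 was at 135, 135 and 89.5 TPM, MCM7 at 117, 122 and 97.6 TPM and MCM6 at 97.0, 121 and 89.0 TPM. MCM2 followed at 99.7, 117 and 82.3 TPM, MCM4 at 88.0, 113 and 79.3 TPM and MCM3 at 74.8, 86.6 and 65.0 TPM. All 6 means lay between 75.5 and 120 TPM, a range of 1.59-fold, and the ranges of neighbouring subunits overlapped across libraries. Their sum was 612, 695 and 503 TPM.

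The complex that loads this helicase was much less abundant. The 6 ORC subunits had means between 9.91 TPM for ORC5 and 24.1 TPM for ORC4, a range of 2.43-fold. All 6 lay below every MCM subunit in each library. ORC1, the subunit whose level follows the cycle in human cells, was at 19.4, 23.0 and 17.2 TPM, and ORC6 at 13.4, 17.0 and 10.7 TPM. Of the genes that switch the loaded helicase on, CDC7, the kinase that phosphorylates MCM proteins, was at 55.8, 66.2 and 41.5 TPM and MCM10 at 5.81, 7.21 and 6.11 TPM. The GINS subunits form a complex with 1 copy of each, yet their RNA levels were not equal, with GINS2 at 81.3, 68.2 and 41.5 TPM against 23.2, 23.2 and 16.0 TPM for GINS1, 15.7, 16.9 and 12.3 TPM for GINS3 and 11.1, 18.0 and 11.7 TPM for GINS4. GINS2 was higher than the other GINS genes in every library, and 4.89 ± 2.13 times GINS4. MCM8 and MCM9, relatives of the helicase that serve DNA repair, were at 3.63, 6.28 and 4.04 TPM and 3.13, 5.02 and 2.22 TPM.

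Mitotic genes covered a wide range. AURKB, the kinase of the chromosomal passenger complex, was at 100.4, 76.6 and 44.6 TPM, and AURKA, which acts at spindle poles, at 12.2, 12.0 and 7.88 TPM, a ratio of 6.76 ± 1.33. PLK1, the main polo-like kinase of mitosis, was at 42.7, 38.3 and 24.3 TPM and PLK4, which starts centriole duplication, at 23.6, 29.0 and 19.5 TPM. PLK2, a stress-responsive relative, was higher than both at 106, 103 and 85.4 TPM, while PLK3, another stress-responsive kinase, was at 12.3, 9.91 and 6.79 TPM and PLK5 at 0.402, 0.366 and 0.0960 TPM, below the threshold. The 4 core subunits of the anaphase-promoting complex, CDC16, CDC23, CDC26 and CDC27, had means from 14.4 to 31.3 TPM. CDC20, which activates that complex, was at 44.4, 26.5 and 18.4 TPM, with FP1 above the other libraries.

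Of the proliferation markers used in histology, MKI67 was readily detected and TOP2A was not measured by its model. MKI67, the antigen Ki-67, was at 47.8, 61.0 and 33.8 TPM. TOP2A, the topoisomerase that untangles replicated chromosomes, was listed with 0 counts in all 3 libraries. Its model is a single block of 265 bases, although the gene has many exons in other mammals, and whether the rest of the gene lies elsewhere in the assembly was not tested. CKS1B, a small CDK-binding protein, was likewise at 0 counts on a model of 519 bases. For models of at least 500 bases of exon, a limit chosen after the data were seen, 74 members were expressed, as among all members. TOP2A alone of the members falls under that limit and was already unexpressed, so the number could not change. The limit therefore does not show how short lifted models bear on the count.

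The CDK family also holds kinases that act on transcription or outside the cycle. CDK7, which activates other CDKs and belongs to a general transcription factor, was among the steadiest members at 34.6, 32.9 and 31.7 TPM. The elongation kinases CDK9 and CDK13 were at 63.8, 70.2 and 67.4 TPM and 43.0, 46.9 and 46.4 TPM, and the Mediator kinases CDK8 and CDK19 at 32.7, 31.9 and 27.4 TPM and 5.32, 11.4 and 8.58 TPM. CDK16, a kinase of the PCTAIRE type, was at 69.3, 75.9 and 80.4 TPM and CDK5, best known from neurons, at 44.9, 46.2 and 43.2 TPM. The neuronal markers summed to 71.9, 88.3 and 82.3 TPM, a sum made mostly of TUBB3. Their bearing on the CDK5 level was not tested. CDK10 was at 54.6, 40.8 and 28.1 TPM, CDK18, another PCTAIRE kinase, at 22.3, 18.0 and 15.2 TPM and CDK14, a partner of the membrane-bound cyclin Y, at 4.69, 5.98 and 3.52 TPM. CDK20, a kinase linked to cilia, was at 7.13, 7.11 and 5.59 TPM. It shares 7.04% of its exon bases with GATA1 on the same strand, and the effect of that on its level was not tested. PLK4 and CDK2 are the other members that share exon bases with a neighbour, 3.0% with HSPA4L and 1.12% with RAB5B. CDK3 was at 0.304, 0.0923 and 0.169 TPM and CDK15 at 0 counts, and neither counted as expressed.

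Several CDC genes carry the name from yeast screens but serve the whole cell. CDC34, a ubiquitin-conjugating enzyme, was at 210.1, 268 and 343 TPM, CDC37, a co-chaperone of kinases, at 276, 275 and 234 TPM and CDC42, a GTPase of cell shape, at 141, 189.9 and 158 TPM. By mean level they ranked 2, 3 and 5 among the members, so the top of the list by level was not made of S phase and mitosis genes alone. CDC73, a subunit of the PAF1 complex of transcription, was at 22.0, 39.5 and 30.5 TPM, CDC123, an assembly factor of translation, at 21.8, 29.8 and 23.4 TPM and the splicing factor CDC40 at 9.75, 12.1 and 10.5 TPM. With the replication, mitosis and G1 and S roles only, a subset chosen after the data were seen, the median was 26.9 TPM.

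Library FP3 was the lowest for most of these genes. Of the 74 expressed members 50 (67.6%) had their lowest TPM in FP3, against 48.9% of expressed genes with a symbol. FP2 was the highest library for 44 members (59.5%), against 62.4% of expressed genes with a symbol. The shift was widest for mitosis genes, 15 of 17 of which were lowest in FP3, with a median of -0.49 on the log2 scale relative to the mean of 3 libraries. AURKB, at 44.6 TPM in FP3, and CDC20, at 18.4 TPM, were among them. Replication genes had a median of -0.26 and 15 of 18 lowest in FP3, and expressed genes with a symbol had a median of -0.14. Scaling the libraries by TMM factors moved the median of all expressed genes in FP3 to -0.02, a shift of more than 0.1. With that scaling the medians were -0.36 for mitosis and -0.13 for replication genes, and 44 members (59.5%) were lowest in FP3, against 31.5% of expressed genes with a symbol. By TPM, 22 members (29.7%) were lowest in FP1, CCNE1, CDKN1A and CDC34 among them, against 40.1% of expressed genes with a symbol.

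Markers of cell types also differed between these libraries. Skeletal muscle markers summed to 11305, 9346 and 13092 TPM, and all 6 were highest in FP3. Surface epithelium markers summed to 4587, 3287 and 6147 TPM, a sum made mostly of KRT14, and 2 of 5 were highest in FP3. Facial mesenchyme markers summed to 577, 520 and 420 TPM, a sum made mostly of TWIST1, and 3 of 6 were lowest in FP3. Neither the epithelium nor the mesenchyme list moved as a whole. Of expressed genes with a symbol 11.4% were highest and 48.9% lowest in FP3. Lists of 5 or 6 genes are too short to set against these shares. Red cell lineage markers summed to 181, 297 and 215 TPM. The part of these differences in the levels of the cell cycle genes was not tested. With 3 libraries of 1 condition, no claim about a single library rests on more than 1 pool of 2 young.

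**Figure D2:**
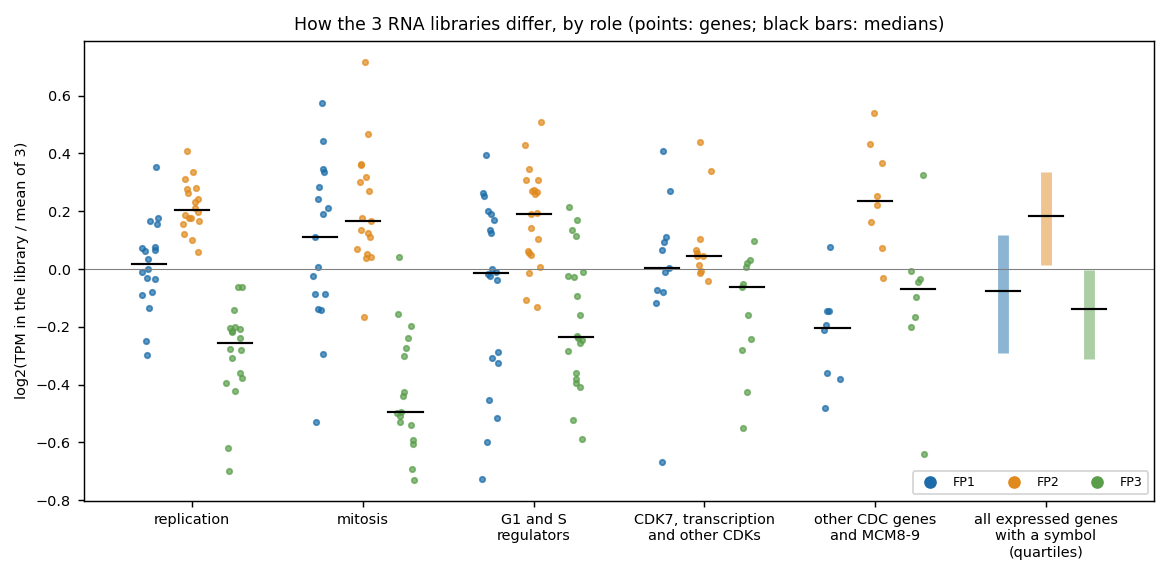
Deviation of each library from the mean of 3, as log2 of TPM in the library over the mean, for 74 expressed members by role (points, with medians as black bars) and for all expressed genes with a symbol (quartiles as bars, at the right). FP3 (green) lies lowest for mitosis genes, at a median of -0.49, and for replication genes, at -0.26, against -0.14 for all expressed genes with a symbol.

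The partners of these genes in the same pathways, taken from 6 lists of 98 symbols, were also mostly expressed. Of these 88 were in the table and 87 of them (98.9%) were expressed, against 75.3% of genes with a symbol. Over 10 TPM in every library were 64 (72.7%), against 49.3%. Both marks lay at the TSS of 76 (86.4%), against 82.3% of genes with a symbol and 90.3% of expressed ones, so the marks were near the background. By mean TPM, CDT1, which brings the MCM ring to ORC, was highest of the licensing and firing partners at 370.2, 299 and 332 TPM and TICRR, which helps to fire origins, lowest at 4.80, 8.44 and 4.49 TPM. At the fork PCNA, the sliding clamp, had the highest mean, at 222, 271 and 198 TPM, and TIPIN the lowest, at 8.81, 10.9 and 7.59 TPM. Of the nucleotide suppliers DUT had the highest mean, at 216, 151 and 113 TPM, and TK1 the lowest, at 63.2, 62.8 and 52.1 TPM, so all 6 of that list exceeded 10 TPM. RBBP4, a histone chaperone shared by several complexes, led the RB and DREAM list at 147, 197 and 141 TPM and LIN52 closed it at 4.37, 6.28 and 4.64 TPM. CDC25B, the phosphatase that frees CDK1 for mitosis, led the switches at 76.4, 81.4 and 57.2 TPM, while CKS1B was at 0. UBE2C, the ubiquitin-conjugating enzyme of the anaphase-promoting complex, had the highest mean of the spindle and kinetochore list, at 219, 131 and 71.7 TPM, and NUF2, a kinetochore protein, the lowest, at 8.61, 6.54 and 5.52 TPM. Some of these ranks did not hold in each library: RRM2 exceeded DUT in FP2 and FP3, RPA3 exceeded PCNA in FP1, INCENP exceeded UBE2C in FP3 and KIF11 lay below NUF2 in FP1, genes named after their values were seen. UBE2C was lowest in FP3, as were AURKB and CDC20. The summed level of the spindle and kinetochore list was 871, 784 and 516 TPM.

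Most of these genes carried both marks at their start. H3K4me3 lay within 1 kb of the TSS in both pools at 74 members (93.7%), against 83.3% of genes with a symbol and 67.9% of all genes. H3K27ac did so at 75 members (94.9%), against 86% of genes with a symbol, and both marks were present at 73 (92.4%), against 82.3%. Among expressed genes the gap was smaller: H3K4me3 was at 70 of 74 members (94.6%), against 90.6% of expressed genes with a symbol, and both marks at 70 of 74 members, against 90.3%. These shares lie near the background of expressed genes.

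The strength of the marks lay close to that of other genes. The median member with H3K4me3 had a fold enrichment of 54.0, with 48.1 in pool 1 and 58.6 in pool 2, against 47.8 for genes with a symbol. Among expressed genes the medians were 56.8 for members and 54.2 for genes with a symbol. For H3K27ac they were 30.3 and 30.9. Pool 2 gave the higher H3K4me3 value at 55 of 74 members (74.3%), against 72.7% of genes with a symbol, and the higher H3K27ac value at 21 of 75 (28.0%), against 30.5%, so the pools differed at members as they did elsewhere. In pool 1 the H3K4me3 peak covered the start itself at 69 of 74 members (93.2%), against 93.2% of genes with a symbol. H3K4me3 exceeded H3K27ac in fold enrichment at 69 of 73 members with both (94.5%), against 82.3% of genes with a symbol and both marks.

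**Figure D3:**
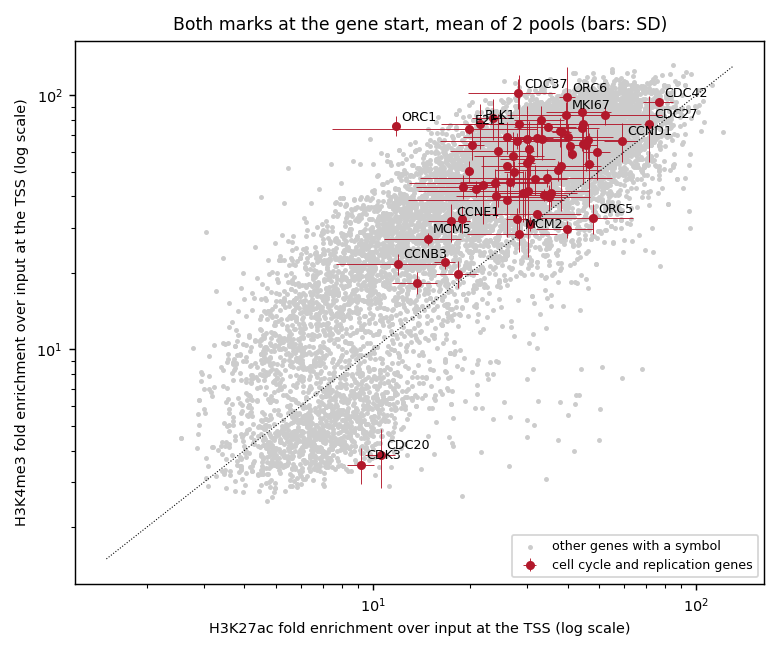
Fold enrichment of H3K4me3 against H3K27ac at the TSS (log axes, mean of 2 pools) for the 73 members with both marks (red, bars show the SD of 2 pools) and for other genes with a symbol (grey), with a dotted line where the marks are equal. Of the members 69 (94.5%) lie above the line, against 82.3% of genes with a symbol, ORC1 stands at the left of the upper group with H3K27ac at 11.8, and CDC20 and CDK3 lie apart at the bottom.

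The strongest H3K4me3 starts belonged to genes of several roles. CDC37 reached 92.4- and 112-fold, ORC6 76.7- and 120.1-fold and CDC42 93.1- and 95.1-fold. E2F3 followed at 84.9- and 87.7-fold and MKI67 at 76.6- and 91.0-fold. By H3K27ac CDC42, at 82.2- and 70.9-fold, and CDC27, at 69.7- and 72.7-fold, led. ORC1 combined strong H3K4me3, at 70.8- and 80.5-fold, with weak H3K27ac, at 11.9- and 11.7-fold, and ORC5 showed the reverse order with 29.8- and 36.0-fold for H3K4me3 and 59.0- and 36.9-fold for H3K27ac. Of the MCM helicase genes, high in RNA, MCM5 had 26.2- and 28.4-fold, MCM2 25.5- and 31.6-fold and MCM3 35.1- and 45.5-fold H3K4me3, all under the member median of 54.0, as was MCM6 at 42.4- and 51.3-fold. MCM4, at 48.6- and 73.9-fold, and MCM7, at 50.5- and 61.6-fold, had means above it.

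Level and mark went together only loosely across members. Over the 74 members with H3K4me3 Pearson's r between log2 fold enrichment and log2(TPM + 1) was 0.48, and over the 70 expressed ones it was 0.20, against 0.25 over expressed genes with a symbol. These are descriptions across genes of the same libraries and pools, which are not independent replicates. ORC6, at a mean of 13.7 ± 3.18 TPM, and CDC37, at 262 ± 24.4 TPM, had nearly equal H3K4me3. The marks followed each other more closely, with r = 0.63 over 73 members and 0.82 over genes with a symbol.

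**Figure D4:**
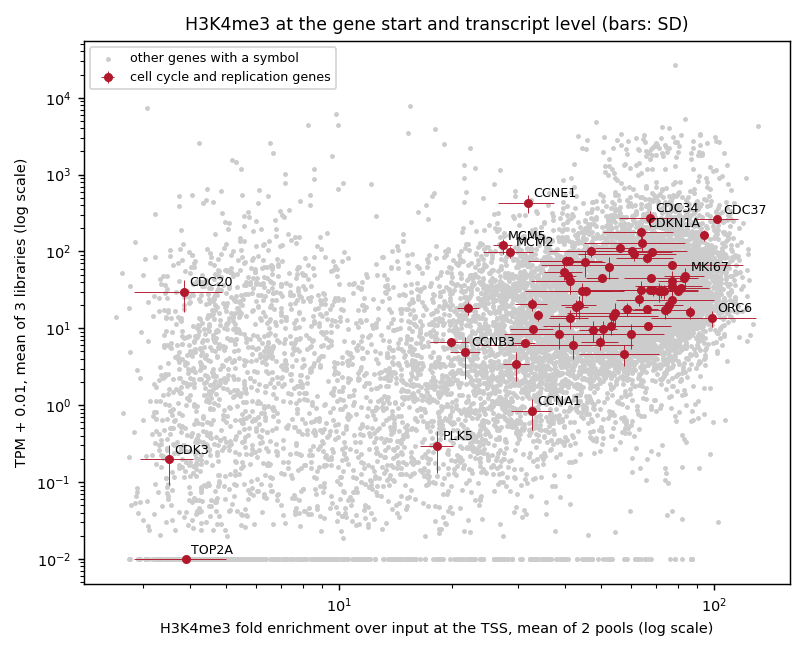
Mean TPM + 0.01 of 3 libraries against mean H3K4me3 fold enrichment of 2 pools (log axes, bars show SD) for the 74 members with the mark (red) and other genes with a symbol (grey). Most members lie at the upper right, CCNE1 is highest in TPM at 31.9-fold, and CDC20 combines a mean of 29.8 TPM with weak H3K4me3.

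Broad H3K4me3 peaks lay at members of several roles, in a share not far from the background. A peak over 5 kb in both pools lay at 12 of 74 members (16.2%), against 11.5% of genes with a symbol and the mark. These were CCND1, CCND2, CDK6, CDK10, CDK13, CDK16, CDKN1C, CDKN2D, E2F1, E2F2, ORC1 and PLK3. At CCND1 (scaffold00017_pilon_pilon:54026248-54037244, minus strand) the peak measured 14.5 kb in pool 1 and 17.3 kb in pool 2, longer than the model itself, which spans 11.0 kb, with 74.4- and 58.0-fold H3K4me3 and 63.7- and 53.9-fold H3K27ac. The widest, 22.6 kb and 18.7 kb, lay at CDKN2D, and in pool 1 it covered 4 gene starts. The peaks of ORC1 (15.3 kb and 12.7 kb), CCND2, CDK16, E2F2 and PLK3 each covered 2 starts. The other 6 broad peaks covered 1 start. At ORC1 the 2 starts lie only 4 bases apart. The part of additional starts in the width of a peak was not tested. None of the 6 MCM2 to MCM7 genes had a peak over 5 kb, but 6 genes are too few to set against the share of 11.5%. The median width was 2740 bases for members and 2596 bases for genes with a symbol.

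**Figure D5:**
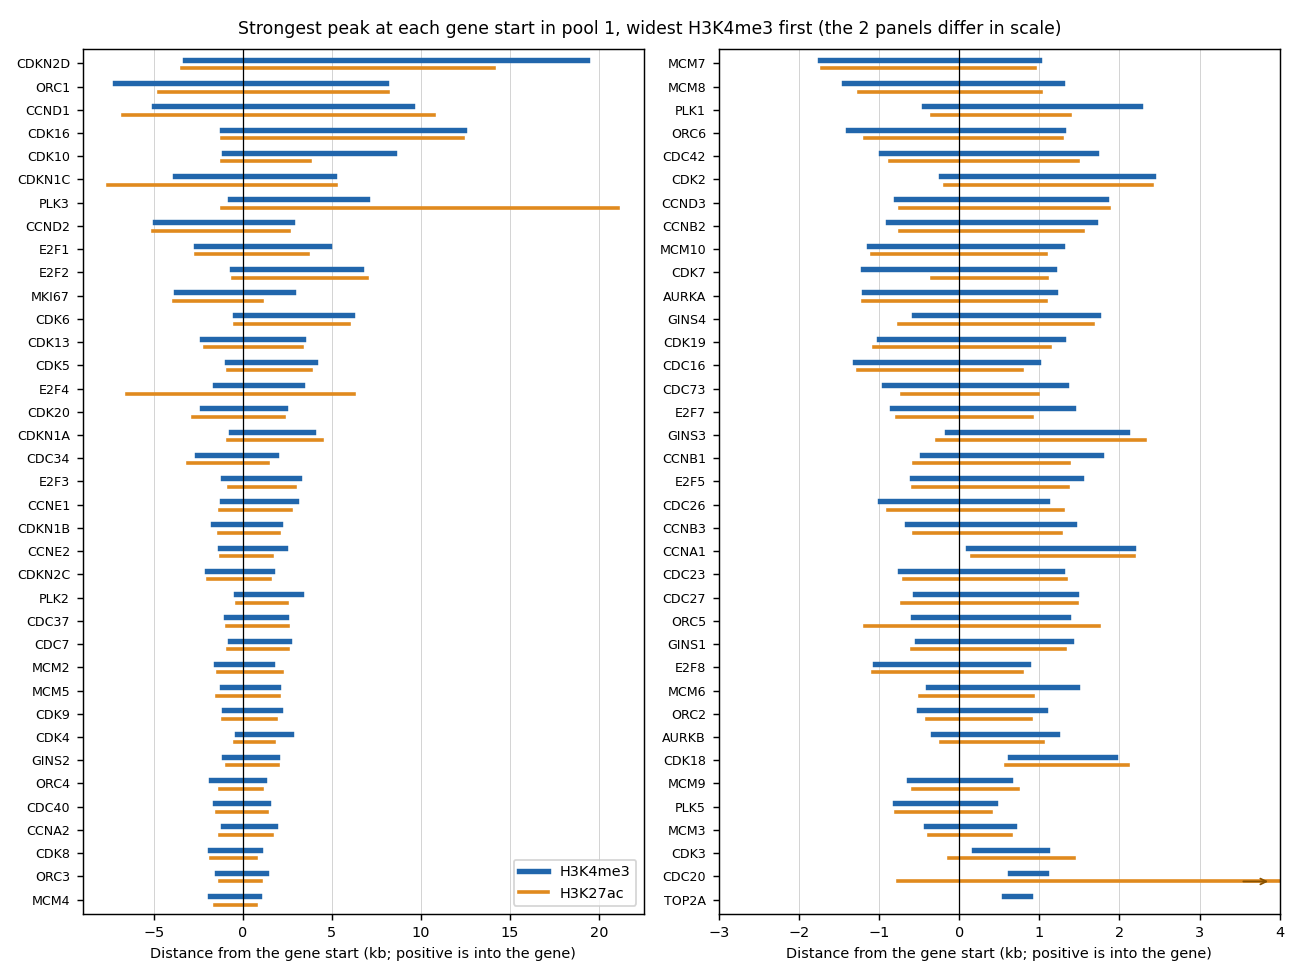
Extent of the strongest H3K4me3 (blue) and H3K27ac (orange) peak in pool 1 around the gene start, in kb, for the 74 members with H3K4me3 in both pools, ordered by H3K4me3 width, with the wider ones at the left on a longer scale. CDKN2D, ORC1 and CCND1 have the widest H3K4me3 peaks, 22.6, 15.3 and 14.5 kb, and the H3K27ac peak of CDC20 runs past the right edge of its panel (arrow).

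At 4 expressed members the model start lacked H3K4me3 in at least 1 pool, and at each of them a strong peak lay elsewhere in or near the model. Such a peak, 10-fold or more in both pools and between 5 kb upstream and the far end of the model, was present for 4 of 4 members and for 391 of the 1003 expressed genes with a symbol that lack the mark at the TSS (39.0%). This search was added after the values were seen. It ran over the whole model, so a longer model offers more room for such a peak. Model length was not matched between the members and the other genes. The models span 15.3 kb at CDK1, 38.2 kb at PLK4, 109 kb at CDC123 and 695 kb at CDK14. CDK1 had an H3K4me3 peak of 5.52-fold in pool 2 alone at its model start, and a peak of 75.4- and 55.1-fold at -2.41 kb (upstream) that covered no annotated start. PLK4 had one of 48.6- and 80.3-fold 16.8 kb inside its model, and CDK14 one of 61.7- and 55.7-fold 66.3 kb inside, both away from any annotated start. The peak of CDC123, 55.6- and 56.3-fold and 34.1 kb inside, covered the start of NUDT5. All 4 also carried H3K27ac, from 22.0- to 62.4-fold.

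CDC20 was similar, though it counted among the genes with the mark. At its model start (scaffold00016_pilon_pilon, position 11566175, plus strand) H3K4me3 was 3.14- and 4.57-fold, while 21.7 kb inside the model a peak of 17.1 kb reached 64.8- and 69.4-fold and covered the start of ELOVL1. The gene models were lifted from the Tasmanian devil, and whether the model start is where transcription begins in the dunnart was not tested. The unexpressed members with a mark were of 2 kinds: CCNA1 and PLK5 had 29.8- and 35.6-fold and 17.0- and 19.6-fold H3K4me3 with hardly any RNA, and CDK3 and TOP2A had 3.92- and 3.12-fold and 4.67- and 3.15-fold. CDK15 had H3K27ac in both pools, at 5.16- and 5.76-fold, and H3K4me3 in pool 2 alone, at 5.55-fold.

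Some of these genes start head to head with another gene. Another model started within 1 kb on the opposite strand and ran the other way at 14 members (17.7%), against 9.09% of genes with a symbol, and 11 of these partners have a symbol. Replication genes among them were ORC1 beside PRPF38A, ORC6 beside VPS35, MCM4 beside PRKDC, MCM7 beside AP4M1 and GINS1 beside ABHD12, while CDK7, ORC4 and PLK2 had partners without a symbol. The closest pairs were ORC1 and the splicing gene PRPF38A, 4 bases apart, and CDC26 and the splicing gene PRPF4, 8 bases apart. The others were CDKN1B with GPR19, E2F4 with EXOC3L1, MCM8 with TRMT6, AURKA with CSTF1 and CDC40 with WASF1.

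Some pairs differed widely in RNA and others did not. ORC1 was at 19.4, 23.0 and 17.2 TPM, against 77.4, 69.6 and 59.2 TPM for PRPF38A. ORC6 was at 13.4, 17.0 and 10.7 TPM, against 76.4, 108.7 and 91.9 TPM for VPS35, a gene of endosome sorting. In the other direction E2F4, at 118, 93.5 and 95.9 TPM, stood beside EXOC3L1 at 1.95, 1.96 and 1.68 TPM, and MCM4, at 88.0, 113 and 79.3 TPM, beside PRKDC, the DNA-dependent protein kinase, at 7.05, 10.3 and 6.15 TPM. Pairs whose libraries overlapped in range were CDC26 and PRPF4, at means of 31.3 ± 1.56 and 29.5 ± 1.73 TPM, and CDC40 and WASF1, at 10.8 ± 1.17 and 9.93 ± 1.41 TPM. GINS1 and ABHD12 also overlapped, at 23.2, 23.2 and 16.0 TPM for GINS1 and 15.9, 29.0 and 15.1 TPM for ABHD12. In all, 47 members had 1 gene start under their H3K4me3 peak of pool 1 and 22 had more. The same shares over genes with a symbol were not computed. A mark over more than 1 start cannot be given to 1 gene.

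H3K27ac without H3K4me3 is the mark pattern that the study took for enhancers. Regions with H3K27ac in both pools that met no H3K4me3 peak found in both were given to the gene with the nearest start. Some still hold H3K4me3 in 1 pool and lie at a model start, as at CDK1 (5.52-fold in pool 2) and CDK15 (5.55-fold in pool 2). Of the 69124 such peaks 254 had a member as the nearest start within 1 Mb, and 48 members (60.8%) had at least 1, against 70.4% of genes with a symbol. The median was 1 peak for members and 2 for genes with a symbol, and the stretch of genome nearest to a start had a median of 51.6 kb for members and 65.6 kb for genes with a symbol. The part of that shorter stretch in the count was not tested. No such peak was given to 31 members.

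Of the members 6 had 10 or more, and the same share over genes with a symbol was not computed. MKI67 (scaffold00090_pilon_pilon:4550942-4575404, minus strand) had 60, more than any other member, and its stretch of 554 kb was long. All 60 lay upstream of the start, between positions -527 and -8.24 kb, and none lay inside the gene. CDK14 had 24, MCM5 12, CDK6 and E2F8 11 each and PLK2 10. Nearness was the only link between peak and gene here. Of the 254 peaks 68 lay inside the model of their member, and the same share over all genes was not computed.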

How the data were processed

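ChIP-seq of H3K4me3 and H3K27ac (2 pools each, with input) and RNA-seq (3 libraries) of the newborn dunnart face were analysed. The authors' ChIP workflow ran cutadapt (1.9.1) for trimming, Bowtie2 (2.3.5.1) for alignment, Picard (2.23.1) and SAMtools (1.9) for duplicates and filtering, and MACS2 (2.1.1) for peaks of each pool against its input. Per peak, the deposited lists hold a fold enrichment (a ratio to input) and p-values and q-values as −log10. For RNA, the authors used Trimmomatic (0.39), HISAT2 (2.21) and featureCounts of Subread (2.0.1), counting reversely stranded pairs over exons. The deposited table holds unscaled counts per gene and the exon length. The authors lifted the models from the Tasmanian devil annotation to their own dunnart assembly. The columns FP1 to FP3 carry no replicate number of the labels and are called libraries. The study's methods describe them as separate pools of 2 young, so an SD covers pools and library making together.

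TPM was computed from counts and length. The 11 genes whose lines are broken in the table, none of them a member, kept their coordinates and lost their counts. A gene was expressed if over 1 TPM in all 3 libraries. The TSS is the outermost exon end by strand, and a mark was at the TSS if a peak with q under 0.05 lay within 1 kb in both pools. Fold enrichments at a TSS are those of the strongest such peak. H3K27ac-only peaks shared at least 50% of either length between pools and no base with such an H3K4me3 peak, and went to the nearest TSS within 1 Mb. All members may be named, and of the pathway lists only the highest and lowest gene. The members and lists were chosen with earlier results of these data known. No test was run, since there is 1 condition. RefSeq's dunnart annotation (assembly ASM4859323v1) lists 83 symbols of the same form, of which 79 were in the table. CDC6, CDK12, CDK17 and E2F6 were not analysed here. Reads shared by near-identical copies of a gene were not examined. Python (3.11.15) with numpy (2.4.6), pandas (2.3.3) and matplotlib (3.10.9) was used, and edgeR (4.0.16) in R (4.3.3) for the TMM factors of an alternative. TPM, peak assignment and overlap were tested on simulated data.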

Additional observations from a re-analysis of the deposited data

How the results depend on the processing

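The 9 results kept their values within the limits set for 47 alternatives, that is within 1.5 times for a count and within the spread between libraries or pools for a median. The number of expressed members was 74 under TMM scaling, at 2 CPM in 2 of 3 libraries and without each library, and 58 over 10 TPM. A count of members that pass in every library or pool can only stay or rise when 1 is left out. With 79 members in all, such a rise stays within the limit for the counts of expressed and of marked members. Members with H3K4me3 at the TSS numbered 70 where the peak had to cover the TSS, 75 within 3 kb, 72 at q under 0.001 and 74 to 76 in single pools. Members with an H3K27ac-only peak numbered 46 to 50. The median member TPM ran from 26.2 to 30.7. The median H3K4me3 fold enrichment ran from 48.1 to 57.4 and that of H3K27ac from 26.8 to 32.3, with single pools at both ends. No paired analysis was possible because no groups were compared. Limits are the lifted gene models, 3 libraries of 1 condition, 2 pools per mark that do not match the RNA pools, and peak lists without read depth.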
